A study of Mus musculus with 2 samples.

Results

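The genes described here encode Lefty1, Cripto (gene symbol Tdgf1) and the Nodal and activin ligands of the mouse. Members were all gene probes whose RefSeq accession maps to Lefty1, Lefty2, Nodal, Tdgf1, Gdf3, Inhba or Inhbb. Of these 7 genes, 5 matched 6 probes, with 2 for Tdgf1 and 1 each for Lefty1, Nodal, Gdf3 and Inhba, among 10149 genes that could be named on the arrays. Lefty2 and Inhbb matched no probe and were not analysed here. RNA of EB5 mouse embryonic stem (ES) cells, a line in which a selection marker is driven from 1 Oct3/4 allele, was hybridised to 2 arrays with 21052 gene probes each. The cells had been grown on gelatin without feeders and had received Klf4 siRNA together with the plasmid pCAGEGFP-IP, which confers puromycin resistance. They spent 24 h in culture and 24 h more in puromycin before RNA was taken. ES cell RNA carried Cy3 and was set against a Cy5-labelled reference, the Universal Mouse Reference RNA, on both arrays. That reference pools equal parts of RNA from 11 cultured lines of testis, skin, muscle, mammary gland, kidney, liver, lung macrophage, B and T cell, fibroblast and embryo origin. Both arrays belong to 1 group, siKlf4 ES cells (n = 2), and nothing says that they came from separate cultures. The p-values and intervals below therefore rest only on differences between these 2 arrays, which may be technical. They use a probe's own spread (1 residual degree of freedom) and, with more weight, a variance borrowed from all probes (4.24 prior degrees of freedom). With the same dyes on both arrays, a dye effect on a probe cannot be told apart from a difference between ES cells and pool.

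Nodal, activins and Gdf3 are secreted dimeric ligands of the TGF-beta family that signal through type I and type II activin receptors to Smad2 and Smad3. Nodal and Gdf3 need a membrane-anchored co-receptor such as Cripto, which activins do not, and Lefty1 and Lefty2 are secreted inhibitors that block Nodal signalling and are themselves induced by it. In mouse ES cells and the early embryo the pathway is known for its part in keeping the epiblast state and in patterning the later germ layers and the left-right axis.

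The title of the series names Klf4, Oct3/4, Sox2 and the Lefty1 core promoter. No ES cells without Klf4 siRNA were analysed here, so every ratio compares siKlf4 ES cells with the reference pool and holds no estimate of what the siRNA did. The Klf4 probe read 1826 and 2542 intensity units above its local background in the ES cells and 1518 and 1603 in the pool, a log2 ratio of 0.51 ± 0.11 (SD, n = 2), which without untreated ES cells does not check the knockdown. That ratio did not exceed the largest absolute mean ratio of a negative control spot, 0.52. Sox2 and Pou5f1, which encodes Oct3/4, stood at log2 ratios of 5.69 ± 0.14 and 2.86 ± 0.053.

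The probes are the measuring devices of this comparison and are shown because the result for Tdgf1 differs between its probes. Each is a 60-base oligonucleotide, printed 5′ to 3′ as the array files give it. For 2 of the 6 (Lefty1 and the Tdgf1 probe with a listed start of 1778) every sense reading frame holds a stop codon, and only the last 30 bases are given. Capitals mark a poly(A) signal in the Lefty1 probe and, in the Inhba probe, a stop codon in 1 sense frame, while another sense frame of that probe is open throughout.
Lefty1, listed start 1560, last 30 bases: ctagatgtgAATAAAatatgctttgttttg
Tdgf1, listed start 1778, last 30 bases: attgttcatgaatatgcacagtaaaaatgg
Tdgf1, listed start 644: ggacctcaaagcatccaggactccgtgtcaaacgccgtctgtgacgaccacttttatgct
Gdf3, listed start 1147: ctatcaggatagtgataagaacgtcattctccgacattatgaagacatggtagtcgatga
Nodal, listed start 1133: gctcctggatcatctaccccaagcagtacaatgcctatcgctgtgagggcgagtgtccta
Inhba, listed start 1393: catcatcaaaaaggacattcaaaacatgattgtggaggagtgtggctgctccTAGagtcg
The listed start is a number in the array files, and the sources used here do not give what it is counted from. GC content was 36.7% for the Lefty1 probe, 30.0% and 53.3% for the Tdgf1 probes at 1778 and 644, 40.0% for Gdf3, 55.0% for Nodal and 45.0% for Inhba, against a median of 41.7% over all gene probes. No other gene probe of the 21052 shared 20 bases in a row with any of the 6, on either strand.

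Signals are mean spot intensities above the local background, in scanner units, and a signal was read against the 95th percentile of 162 negative control spots. On arrays 1 and 2 these limits were 155 and 178 units for the ES cells and 40.9 and 58.4 units for the pool. The medians of those spots were 129 and 138 units for the ES cells and 28.5 and 32.3 for the pool. Dim signals are therefore not comparable in units between the channels. The median gene probe read 308 and 355 units for the ES cells and 246 and 264 for the pool. All 6 member probes lay above the limit in both channels on both arrays, and none was saturated. Ratios are log2 of ES cells over reference after background correction and loess normalisation. They correlated between the arrays at r = 0.987 across probes, which are not independent replicates. A probe was called where limma's adjusted p was under 0.05 and both arrays had the same sign.

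Of the 5 genes, 4 were higher in siKlf4 ES cells than in the pool (Tdgf1, Lefty1, Gdf3 and Nodal) and 1 was lower (Inhba). Tdgf1, Lefty1 and Gdf3 were at least 2-fold higher, Inhba was at least 2-fold lower, and the median log2 ratio of the 5 genes was 2.30. Over all 21028 probes tested, 31.6% were called higher and 31.4% lower, and 5.08% and 5.19% were called at least 2-fold higher and lower. The median of all probes was -0.01, but loess normalisation itself centres the ratios near 0. Since most probes were called in either direction, a call by itself says little, and the sizes are given for each gene.

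Lefty1, the secreted Nodal inhibitor, read 1246 and 1505 units in the ES cells on arrays 1 and 2 and 113 and 124 units in the pool. Both ES values were far above both pool values, and the pool values were 2.78 and 2.13 times the negative control limit. The log2 ratios were 3.13 and 3.16, with a mean of 3.14 ± 0.022 (SD, n = 2; 95% interval 3.05 to 3.24), or 8.84-fold (limma, adjusted p = 5.10e-07). By mean ratio the Lefty1 probe was at position 47 from the highest of 21028. The fold depended on how much background was taken from the dim pool signal: the log2 ratio was 1.74 without background correction and 4.00 with the negative control spots as background. In the authors' deposited scanner files, the log10 ratio of pool over ES cells was -0.990 and -0.994.

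Tdgf1 encodes Cripto, the anchored co-receptor that Nodal and Gdf3 use, and its 2 probes differed. The probe at 1778 read 10542 and 15105 units in the ES cells and 151 and 207 in the pool. Its log2 ratios of 6.03 and 5.93, with a mean of 5.98 ± 0.066 (95% interval 5.87 to 6.08) or 63.1-fold, were the highest of all 21028 probes (limma, adjusted p = 4.71e-07). The probe at 644 read 776 and 1056 units in the ES cells and 116 and 154 in the pool. Its log2 ratios were 2.34 and 2.37, with a mean of 2.36 ± 0.019 (95% interval 2.26 to 2.45) or 5.12-fold (limma, adjusted p = 9.10e-07).

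Both Tdgf1 probes showed higher signal in the ES cells than in the pool on both arrays. The log2 ratio at 1778 exceeded that at 644 by 3.68 on array 1 and 3.56 on array 2, a mean of 3.62. No larger difference was found among the 241 named genes with several probes, whose median difference was 0.27 and of which 24 differed by more than 1. Over 8 other ways of processing that were run, the difference ranged from 3.40 to 3.77. Some of these reuse the reported ratios or share ratios with each other. The mean of both probes was 4.17. Both carry the same RefSeq accession, and GC content also differed between them (30.0% and 53.3%); its part in the result was not tested. Without background correction the log2 ratios were 4.60 at 1778 and 1.20 at 644. With negative control background they were 6.52 and 3.05.

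**Figure D1:**
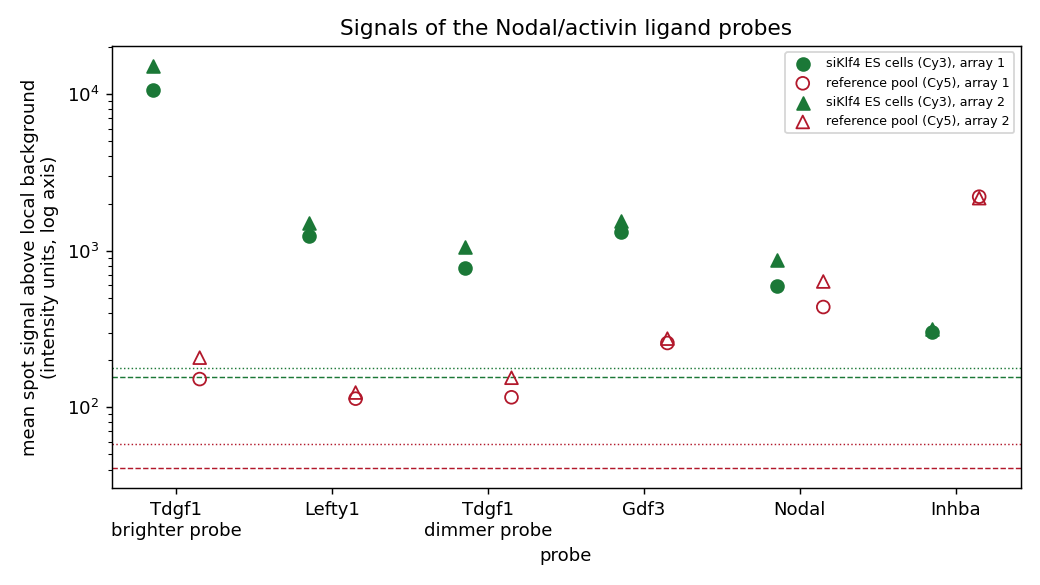
Mean spot signal above local background, in intensity units on a log axis, for the 6 probes in siKlf4 ES cells (filled green) and the reference pool (open red) on array 1 (circles) and array 2 (triangles); the brighter Tdgf1 probe is that at 1778 and the dimmer that at 644, and dashed and dotted lines are the negative control limits of arrays 1 and 2 in the colour of the channel. ES signals lie above pool signals for Tdgf1, Lefty1 and Gdf3, the Nodal signals of the channels overlap across arrays, and Inhba reads 304 and 317 units in ES cells against 2212 and 2164 in the pool.

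Gdf3, a ligand that acts with Nodal and uses Cripto, read 1307 and 1553 units in the ES cells and 257 and 274 in the pool. Its log2 ratio was 2.30 on both arrays, with an SD of 0.0028 (n = 2; 95% interval 2.21 to 2.39), or 4.93-fold (limma, adjusted p = 9.16e-07). The ratio repeated more closely between the arrays than for 96.3% of probes. It fell to 1.46 without background correction. The intervals of Gdf3 and of the Tdgf1 probe at 644 overlapped and the Lefty1 interval lay above both, but no test compared the probes. The order of Gdf3 and that Tdgf1 probe changed with processing. They stood at 1.46 and 1.20 without background correction and at 2.63 and 3.05 with negative control background.

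Nodal, the ligand that Lefty1 inhibits, read 590 and 866 units in the ES cells and 436 and 635 in the pool. Within each array the ES value was the higher, but the pool on array 2 exceeded the ES cells on array 1, since both channels of this probe were brighter on array 2, by 1.47 times in the ES cells and 1.46 times in the pool (medians over all probes 1.14 and 1.04). The log2 ratios were 0.39 and 0.32, with a mean of 0.36 ± 0.050 (95% interval 0.26 to 0.46), or 1.28-fold (limma, adjusted p = 0.000725). This is smaller than the largest mean ratio of a negative control spot, 0.52 in absolute value, and 16.3% of all probes had a higher ratio. In the authors' deposited scanner files the p-values of the Nodal log ratio were 0.107 and 0.182 on the arrays. The log2 ratio was 0.16 with median centring in place of loess.

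Inhba encodes the beta A subunit of activin A and of inhibin A, and it was the only member lower in the ES cells. It read 304 and 317 units in the ES cells and 2212 and 2164 in the pool, so the channels did not overlap, and the ES values were 1.96 and 1.78 times the negative control limit. The log2 ratios were -2.85 and -2.96, with a mean of -2.90 ± 0.082 (95% interval -3.02 to -2.79), which makes the pool 7.48-fold higher (limma, adjusted p = 8.77e-07). By mean ratio the Inhba probe was at position 112 from the lowest. Without background correction the log2 ratio was -1.84 and with negative control background -3.42. In the authors' deposited scanner files the log10 ratio of pool over ES cells was 0.824 and 0.861.

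**Figure D2:**
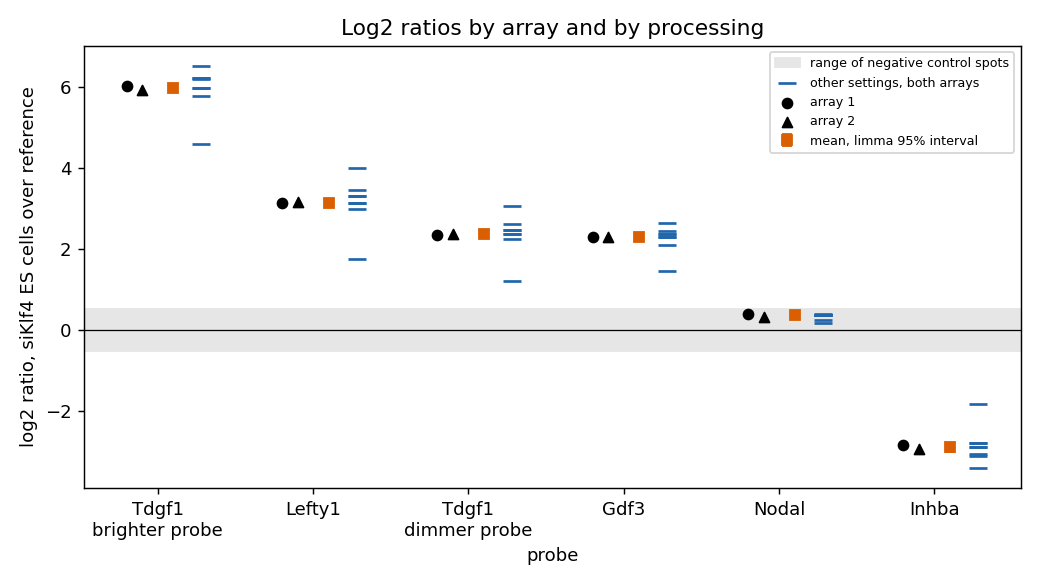
Log2 ratio of siKlf4 ES cells over the reference pool for each probe on array 1 (black circle) and array 2 (black triangle). The mean and limma's 95% interval are orange, and the means under other ways of processing are blue dashes. The grey band, called the range of negative control spots here and below, reaches 0.52 either side of 0. That value is the largest absolute mean ratio of any such spot, set on both sides. The order from Tdgf1 at 1778 (5.98) through Lefty1 (3.14), Tdgf1 at 644 (2.36), Gdf3 (2.30) and Nodal (0.36) to Inhba (-2.90) is that of the means, and Nodal lies inside the band.

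**Figure D3:**
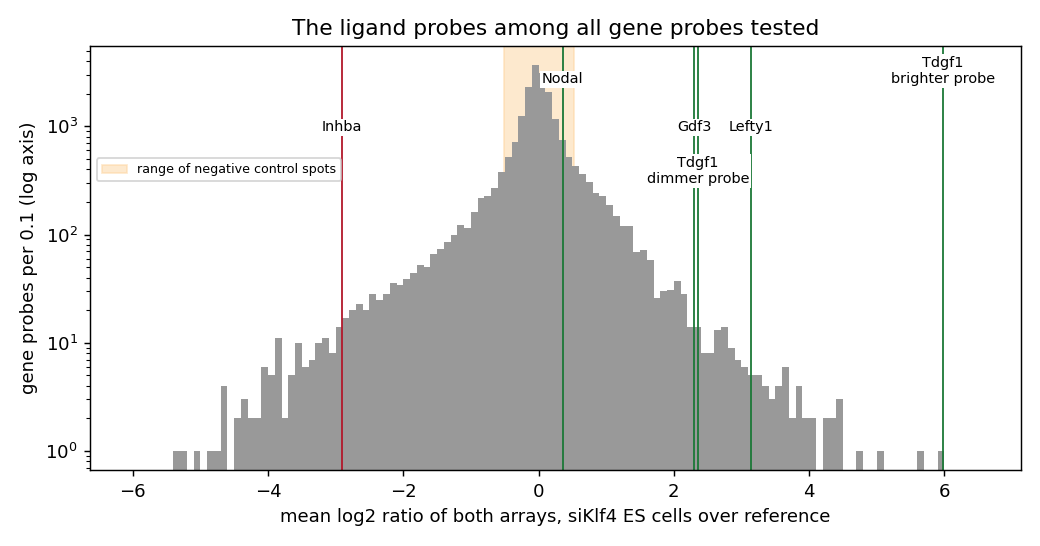
Number of gene probes per 0.1 of mean log2 ratio, on a log axis, for all 21028 probes tested, with vertical lines at the 6 member probes (green where called higher, red where called lower) and the range of negative control spots shaded. The Tdgf1 probe at 1778 lies at the right end of the distribution, Lefty1 and Inhba lie in its tails and Nodal lies near its centre.

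The pool contains fibroblasts among other cells, so marker genes of ES cells and of other cell types were read beside the ligands. Of 11 measured ES cell markers 10 were called higher (1 of them, Esrrb, with signals below the negative control limit in both channels) and Fgf4 did not pass. Their summed signal was 67630 and 88788 units in the ES cells and 5601 and 6765 in the pool. All 7 measured fibroblast markers were lower, with summed signals of 5740 and 7029 units in the ES cells and 76674 and 73936 in the pool. Of 4 trophectoderm markers 3 were lower and 1 did not pass. Of 6 primitive endoderm markers 1 was higher, 3 lower and 2 not passed. Of 6 primitive streak and mesoderm markers 1 was higher, 3 lower and 2 not passed, all inside the range of negative control spots. Their summed signals in the ES cells and in the pool were 1960 and 2183 against 20554 and 20565 for trophectoderm, 2717 and 3330 against 8026 and 8450 for primitive endoderm, and 2193 and 3353 against 2160 and 3052 for streak and mesoderm. Most of the trophectoderm and primitive endoderm sums in the pool came from 1 gene each, Krt18 (19468 and 19458 units) and Sparc (6674 and 6834 units). Without Krt18 the trophectoderm sums were 848 and 931 units in the ES cells and 1085 and 1107 in the pool. Without Sparc the primitive endoderm sums were 1670 and 2074 units in the ES cells and 1353 and 1616 in the pool. Negative control spots read higher in the ES channel than in the pool channel, which raises sums of dim markers there. The order of these sums, and of those for streak and mesoderm, therefore gives no direction of expression. Without Vim, the brightest fibroblast marker in the pool, the fibroblast sums were 1836 and 2165 units against 17037 and 16630. The part of these marker differences in the ligand ratios was not tested, and fewer cells of a type and less RNA per cell cannot be told apart in such bulk RNA.

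The genes most like each member were taken as those with the smallest Euclidean distance over the log2 ratios of both arrays, among 8947 named probes above the negative control limit everywhere. For Lefty1 these were Rbpms2 at a mean of 3.20, Cdh1 (E-cadherin, the epithelial adhesion molecule) at 3.06 and Uchl1 (a ubiquitin hydrolase) at 3.05. For Tdgf1 at 1778 they were Sox2 at 5.69, Zfp42 (Rex1, an ES cell zinc finger protein) at 5.01 and Tcl1 (an Akt cofactor) at 4.43, with distances of 0.412, 1.38 and 2.19. For Gdf3 they were Dmd (dystrophin) at 2.26, Folr1 (a folate receptor) at 2.35 and the Tdgf1 probe at 644. For Inhba they were the collagen gene Col1a1 at -2.91, Ncf4 (a subunit of the phagocyte NADPH oxidase) at -2.86 and Itm2b at -2.94. With 2 arrays of 1 group, likeness means only a ratio of similar size.

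The remaining pathway was read from lists of 56 other genes by role, of which 37 were measured. Of these, 10 were called higher, 16 lower and 11 did not pass, with a median of -0.06 (-0.01 over all 10137 named genes, of which 3528 were higher, 3468 lower and 3141 not passed). At least 2-fold differences were found for 2 higher genes (Tgif1 and Tgif2) and 4 lower genes, among them Furin, Smad3 and Fstl1. Only 13 of the 37 lay beyond the range of the negative control spots, and calls inside it are given below by their values.

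Among other ligand subunits, 5 of 6 listed genes were measured, with 2 higher, 2 lower and 1 not passed and a median of 0.01. None lay beyond the negative control range. Inha, the alpha subunit that turns activin subunits into inhibins, stood at -0.23, and the activin subunit genes Inhbc and Inhbe at 0.22 and -0.31. Gdf1, a ligand that pairs with Nodal, stood at 0.01 and did not pass. Mstn was called higher at 0.13 but was above the limit in neither channel.

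Genes for ligand processing and handling were lower in 5 of 6 measured cases, and 1 did not pass. Furin, a convertase that cleaves the Nodal precursor, read 233 and 257 units in the ES cells and 753 and 785 in the pool, a log2 ratio of -1.93 ± 0.046. Its ES signals stood near the negative control limits of 155 and 178 units, and the ratio ran from -2.56 to -0.95 over the ways of processing. Hspa5, an endoplasmic reticulum chaperone that binds Cripto, stood at -0.79, the proteoglycan gene Gpc1 at -0.56 and Nomo1, which encodes a Nodal modulator, at -0.27. Cfc1, the relative of Cripto, read 995 and 1177 units in the ES cells and 1186 and 1219 in the pool, a log2 ratio of -0.11 ± 0.0064 (limma, adjusted p = 0.0403). Its call was lost with negative control background, with the processed signals and with the deposited series table. Both Cfc1 signals of the ES cells lay below both of the pool, by little, whereas both Tdgf1 probes read higher in the ES cells.

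Of the receptors, 3 of 5 listed genes were measured. Acvr2b, a type II receptor, read 441 and 483 units in the ES cells and 182 and 186 in the pool, a log2 ratio of 0.91 ± 0.024. The type III receptor Tgfbr3 was called lower at -0.23, with an ES signal above the limit on 1 array only. Acvr1b, the type I receptor Alk4, was not above the limit in the ES cells and did not pass.

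Of the Smads and their nuclear partners, 1 of 6 measured genes was higher, 2 were lower and 3 did not pass. Smad3 read 677 and 960 units in the ES cells and 2032 and 2208 in the pool, a log2 ratio of -1.36 ± 0.13. That ratio ran from -1.58 to -0.99 over the ways of processing. Smad2, which carries the same signal, read 1453 and 2108 units in the ES cells and 1606 and 2051 in the pool, a log2 ratio of -0.01 ± 0.039. The shared partner Smad4 stood at 0.69 and Drap1, a repressor of Foxh1 activity, at -0.81. Foxh1, the factor through which Smad2 binds Nodal targets, stood at -0.01 with 3566 and 4121 units in the ES cells and 3803 and 3866 in the pool.

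Extracellular and membrane inhibitors were higher in 1, lower in 3 and not passed in 2 of 6 measured genes. Fstl1, a follistatin relative, read 678 and 839 units in the ES cells and 3943 and 4086 in the pool, a log2 ratio of -2.39 ± 0.021. Fst, which binds activin, and Cer1, a secreted Nodal inhibitor, stood at -0.05 and -0.02 and did not pass. Fstl3 stood at -0.27 and Igsf1 at 0.14, while Tmeff2 was called lower but was not above the limit in the ES cells on either array. None of these inhibitors had a log2 ratio above 0.14, against 3.14 for Lefty1.

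Intracellular inhibitors were higher in 4 of 5 measured genes, and none was lower, with a median of 0.74. Tgif2, a corepressor of Smad transcription, read 2750 and 3564 units in the ES cells and 1061 and 1250 in the pool, a log2 ratio of 1.48 ± 0.072. Its relative Tgif1 stood at 1.03 ± 0.020, the Smad phosphatase gene Ppm1a at 0.74 ± 0.10 and the corepressor gene Skil at 0.25. Pmepa1 stood at -0.04 and did not pass. With median centring in place of loess, the number of pathway genes at least 2-fold higher was 1 rather than 2.

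Genes that Nodal induces in the embryo were higher in 1, lower in 3 and not passed in 3 of 7 measured cases. Mixl1 and Foxa2, of mesendoderm and endoderm, stood at -0.44 and -0.14, and Gsc at 0.32 with a pool signal above the limit on 1 array only. T (Brachyury), Cer1 and Sox17 stood between -0.06 and 0.03 and did not pass.

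**Figure D4:**
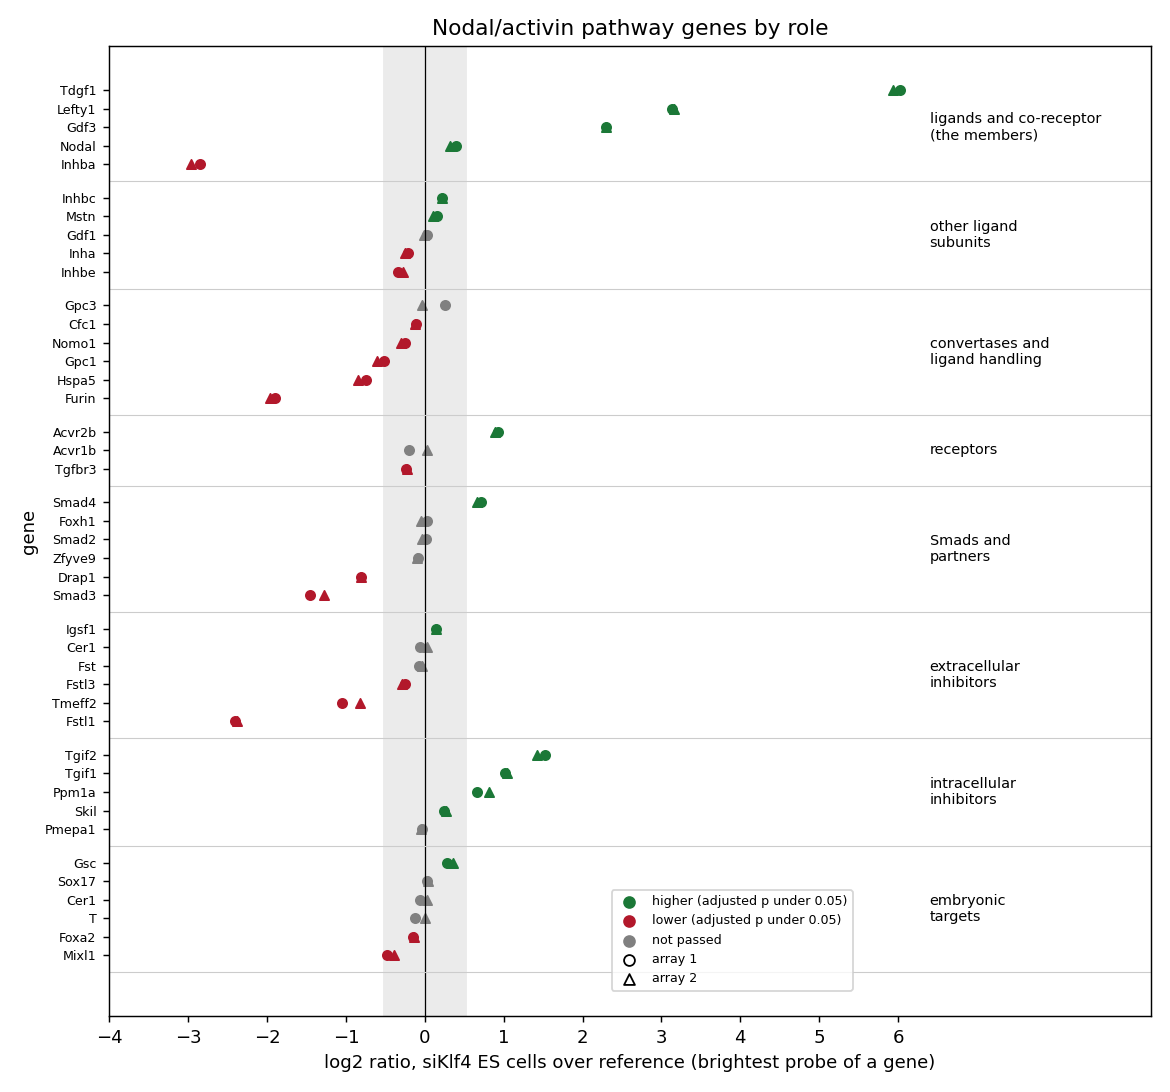
Log2 ratio of siKlf4 ES cells over the reference pool for the measured genes of the pathway lists that are named here, by role, on array 1 (circles) and array 2 (triangles), from the brightest probe of a gene; green and red mark genes called higher and lower, grey marks those not passed, and the grey band is the range of negative control spots. Tdgf1, Lefty1 and Gdf3 lie furthest to the right, Inhba and Fstl1 furthest to the left, and the 4 called intracellular inhibitors all lie right of 0.

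Genes beside the members on the chromosome were read in RefSeq order, up to 3 protein-coding genes on either side, with no test of neighbourhood. Beside Gdf3 stood Dppa3 (Stella, a maternal factor also made in ES cells), with 1572 and 2145 units in the ES cells and 94.3 and 132 in the pool and a log2 ratio of 3.66 ± 0.027 (SD, n = 2), and Slc2a3 (the glucose transporter Glut3) at 3.30 ± 0.14. Both were higher, as was Gdf3, while Apobec1 on its other side was lower at -1.16; Nanog, which lies between Dppa3 and Slc2a3, matched no probe. Mfap5 was called higher at 0.32, inside the negative control range.

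All 4 measured neighbours of Tdgf1 (Tmie, Als2cl, Rtp3 and Ltf) stood between -0.09 and 0.06 and did not pass, against 5.98 and 2.36 for the probes of Tdgf1 itself. Tmie was above the limit in the ES cells on neither array, and its ratio ran from -0.41 to 0.13 over the ways of processing. It was called with median centring, with an offset of 16 and with negative control background, and Ltf was called with median centring. Beside Lefty1, Ephx1 (epoxide hydrolase) was lower at -1.31 and Sde2 was called higher at 0.20, a sign that turned with median centring and a call that was also lost with negative control background. Pald1 and Eif4ebp2, on either side of Nodal, were higher at 1.80 and 1.13, both larger than Nodal's 0.36, and Lrrc20 was lower at -0.25. Around Inhba, Mplkip was higher at 0.93 and Gli3 lower at -0.13, while Sugct was called lower at -0.28 with signals above the limit in neither channel. The Gli3 call was lost without background correction, with median centring, with the processed signals and with the deposited series table. The Sugct call was lost without background correction and with negative control background. In the latter setting signals were held to at least 16 units, and the Sugct ratio of 0.004 equalled the median of all probes. That value is no reversal.

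**Figure D5:**
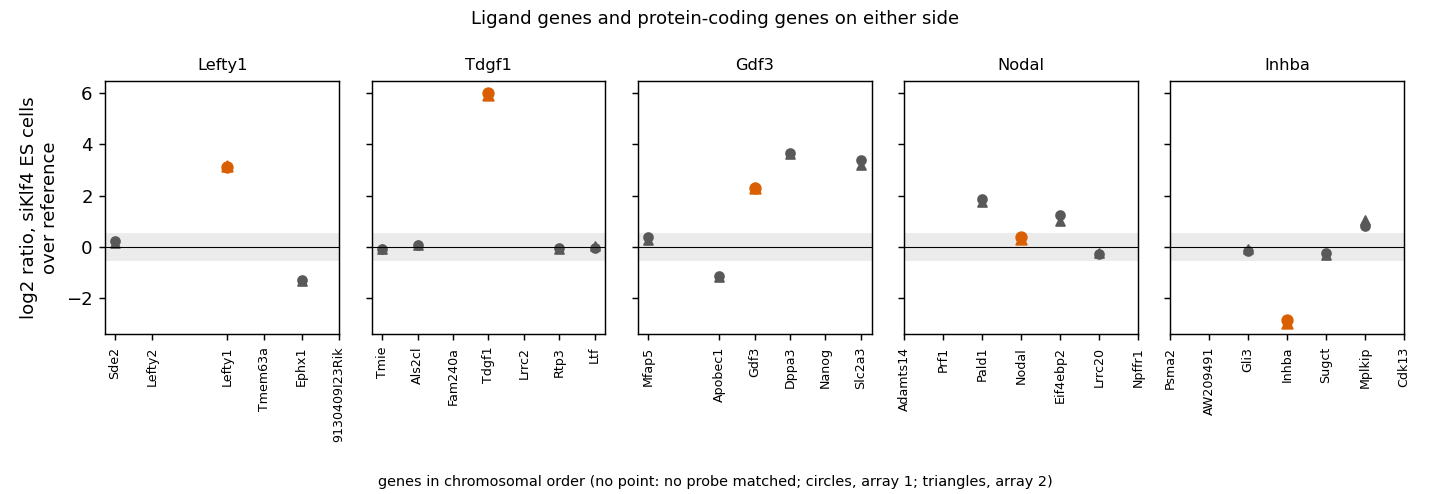
Log2 ratio of siKlf4 ES cells over the reference pool for each ligand gene (orange) and up to 3 protein-coding genes on either side of it (grey) in chromosomal order, on array 1 (circles) and array 2 (triangles), where a gene without a point matched no probe and the grey band is the range of negative control spots. Dppa3 and Slc2a3 lie above Gdf3, and the measured neighbours of Tdgf1 lie at 0 or close to it.

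Promoters were read because the series title concerns a core promoter and because Tdgf1 and Inhba had ratios of opposite sign. The RefSeq promoter table (GRCm38.p6) held Tdgf1, Nodal, Inhba and Inhbb. The Lefty1 promoter, which is that of the title, and those of Lefty2 and Gdf3 were not analysed here. The 250 bases before the start of Tdgf1 (chr9:110946159-110946408, minus strand) and of Inhba (chr13:16011601-16011850, plus strand) are printed 5′ to 3′, with matches to a Klf4 core, the octamer of Oct3/4 or a Sox core in capitals.
Tdgf1: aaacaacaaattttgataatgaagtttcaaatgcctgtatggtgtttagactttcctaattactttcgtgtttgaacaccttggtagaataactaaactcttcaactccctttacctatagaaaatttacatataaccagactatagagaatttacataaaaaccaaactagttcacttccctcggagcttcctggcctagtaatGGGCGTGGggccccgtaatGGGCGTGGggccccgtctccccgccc
Inhba: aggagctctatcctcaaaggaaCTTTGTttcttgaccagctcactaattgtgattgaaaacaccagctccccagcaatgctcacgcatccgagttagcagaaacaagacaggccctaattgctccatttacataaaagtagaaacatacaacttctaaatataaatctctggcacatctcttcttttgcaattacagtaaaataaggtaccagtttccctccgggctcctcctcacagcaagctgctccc
The motifs were searched on both strands. The Klf4 core GGGNGTGG was held by 15.9% of 32851 windows of this length, the octamer ATGCAAAT by 1.6% and the Sox core CNTTGT by 36.3%. The Smad core GTCTG was held by 42.2% and the FoxH1 core TGTNNATT by 10.9%. A match is a description of letters, not a site.

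The Tdgf1 window held the Klf4 core at -45 to -38 and at -26 to -19 from the gene start. Both lay in a 21-base repeat, gtaatgggcgtggggccccgt, whose copies ran from -50 to -30 and from -31 to -11 and so overlapped, and 2.81% of windows held at least 2 Klf4 cores. It also held the FoxH1 core on the other strand at -127 to -120 and -101 to -94 and the Smad core on the other strand at -113 to -109, with no overlap among these. No octamer and no Sox core was found in it. The Inhba window held 1 Sox core, at -228 to -223, and none of the other motifs. The Nodal window likewise held only a Sox core, at -242 to -237, and the Inhbb window only a Klf4 core, at -174 to -167.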

How the data were processed

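RNA of siKlf4 ES cells (n = 2) was compared with the Universal Mouse Reference RNA on 2 arrays with the same dyes. Agilent Feature Extraction A.7.5.1 produced the scanner files, per the file headers. The intensity columns the authors deposited are mean spot, local background and processed signals, and beside them stand a deposited log10 ratio of red over green and the software's p-value. How the series table was made is not stated in the labels; its deposited log10 values could be rebuilt from the scanner files. A value is the log10 red processed signal averaged over the arrays, less the log10 ratio of its own array, to within 2e-04 for 99.62% and 99.61% of probes. The table therefore carries the ratios of the processed signals, around column medians of 2.918 and 2.921 rather than 0.

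Background correction was by normexp (offset 50) on the mean and local background median signals, and ratios were normalised by loess within each array, control spots at weight 0, with limma 3.58.1 in R 4.3.3. Loess assumes that most probes do not differ, and the offset shrinks ratios of dim probes. Each array had 22132 spots: 21052 gene probes and 1080 controls. Outlier flags removed 24 probes and left 21028. Means were tested against 0 (eBayes with 4.24 prior and 1 residual degrees of freedom, Benjamini-Hochberg over all probes). The number of arrays limits the precision. Gene probes were named by RefSeq accession: 10422 received 1 symbol and 10630 none, and the brightest probe of a gene was used in counts over lists. Every probe of the 7 genes is reported; Klf4, Pou5f1 and Sox2 are named for the series title, pathway genes from lists, and the 3 genes nearest in ratio for 4 members. Up to 3 protein-coding genes on either side of each member were taken from the RefSeq order. Some genes of these sets are not reported here, although counts over lists include them. Members, lists and this rule were chosen with earlier results of these data known.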

Additional observations from a re-analysis of the deposited data

How the results depend on the processing

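All 6 member probes kept their direction and their call under 8 other ways of processing that gave a test: no background correction, an offset of 16, background from the negative control spots, median centring, the scanner software's processed signals, the deposited series table, a filter on dim probes and an intensity trend in the variance. Nodal's adjusted p from limma ranged from 0.000361 to 0.0187 over these and the reported one. The filter and the intensity trend reuse the reported ratios, so a direction could not change there, for member and pathway genes alike. The deposited series table carries the ratios of the processed signals, so those settings are not separate checks of direction. With only 1 array, a value with no test, the ratios lay between 2.30 and 2.30 for Gdf3, -2.96 and -2.85 for Inhba, 3.13 and 3.16 for Lefty1, and 0.32 and 0.39 for Nodal. For Tdgf1 they lay between 5.93 and 6.03 at 1778 and between 2.34 and 2.37 at 644. Without background correction, 510 probes were at least 2-fold higher and 467 lower (1068 and 1092 as reported), as were 1 and 1 of the pathway genes (2 and 4 as reported). With negative control background, 1787 probes were at least 2-fold lower and 4 pathway genes at least 2-fold higher, and with median centring 1 pathway gene was at least 2-fold higher. The cause was not tested. Of 26 called pathway genes, 26 kept their sign in every setting and 22 their call, all but Cfc1, Igsf1, Mstn and Tgfbr3. With negative control background the Mstn ratio was 0.004, equal to the median of all probes, so its sign there says little. The pool signals of Lefty1 and Tdgf1 and the ES signal of Inhba lie within 4 times the negative control limit, so the size of their ratios depends on the background taken off. Each ratio already pairs the channels of 1 array, and there was no second group to pair.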
